A study of Mus musculus with 18 samples.

Results

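The 34 genes described here mark macrophages, monocytes and other myeloid cells, and some of them all leukocytes. They were given as a list of symbols. The rule that matches them uses no measured value, but the list was drawn up with earlier results of these arrays known. Each was matched by symbol to the probe table, and each had 1 probe set. They are 34 of 22180 genes with an unambiguous symbol, and all 34 were among the 16011 genes bright enough to be tested. Expression was measured on 18 microarrays of cells sorted from mouse muscle or tumors after digestion with collagenase B and Dispase II. Muscle was the sternocleidomastoid, a neck muscle, of mice of strain B6;SJL and genotype aP2-Cre/+;tdTomato/+ (1 array's label reads aP2-Cre/+;tdTomato) at postnatal day 21. Tumors came from mice of strain BJ;SJL;B6.129 and genotype aP2-Cre/+;tdTomato/+/;SmoM2/+ at day 48, or day 38 for repeat 4. All mice thus carried the Cre and the Tomato reporter, and only the tumor mice carried SmoM2, an activated form of the Hedgehog signal transducer Smoothened.

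The sorted populations were Tomato-negative muscle cells (3 arrays), Tomato-positive muscle cells (3), Tomato-negative Pecam1-negative tumor cells (4), Tomato-positive Pecam1-negative tumor cells (4) and Tomato-positive Pecam1-positive tumor cells (4). Tomato-negative cells are called unmarked and Tomato-positive cells marked. The labels name a Pecam1 gate for the tumors only. Pecam1 is an endothelial surface protein that platelets and many leukocytes also carry. The aP2 promoter is that of Fabp4, a fatty acid binding protein of adipocytes, capillary endothelium and macrophages, so Tomato is no mark of a single cell type. No gate selected leukocytes, and every macrophage signal here comes from a mixed population.

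Macrophages in a tissue come from cells seeded before birth and from blood monocytes. Monocytes enter through Ccr2, the receptor for the chemokines Ccl2, Ccl7 and Ccl12, and survive and mature under Csf1 acting on its receptor Csf1r. Resident macrophages typically carry scavenger receptors such as Mrc1 and Cd163 and make complement C1q. Many of these genes are driven by the transcription factor PU.1, encoded by Spi1, which binds purine-rich sites around the core letters GAGGAA.

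Values are deposited log2 intensities, and levels of different genes are not compared because probe sets differ in brightness. The table used gives no detection calls. A value at or under the 40th percentile of its array is called dim, and a difference from a dim level depends on that floor and may understate the change. The array medians were 5.04 to 5.10 in muscle and 5.41 to 5.44 in tumor, so medians were subtracted for tumor against muscle. For every probe set the mean over the 3 populations of a tumor repeat was the same in all 4 repeats, within 7.67e-05. A lower value in one population of a repeat therefore goes with higher values in the others. For tumor against muscle, variation between tumors shared by the populations is missing from p-values, which are then too small. Between tumor populations the fits without a block ignore this tie within a repeat, so their p-values are too small as well. Fits with the repeat number as a block allow for it. Repeat 4, the day 38 tumor, stood apart for the members. It was the lowest unmarked tumor array for 31 of 34 members and the highest Pecam1-positive array for 31 of 34. These counts are linked by the equal repeat means, and the share of all genes with repeat 4 at an extreme was not counted. In unmarked muscle cells a list of 9 salivary gland genes averaged from -0.44 to 1.04 relative to the array median, highest in repeat 1, and its part in the results was not tested.

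Sequences before the transcription start are shown for the 10 members whose last 100 bases before a start hold the PU.1 core. Fcgr3 and Clec7a each have more than 1 start, of which 1 is shown. RefSeq windows (GRCm38.p6) matched 26 of the 34 symbols. The letters GAGGAA, on either strand, occurred within 250 bases before a start in 15 of the 26 genes (57.7%), against 25.9% of 27025 genes. Per window the shares were 51.5% of 33 and 23.3% of 32851. A match describes the letters and is not a measured binding site. The members were listed as myeloid genes, and the part of PU.1 in their differences between populations was not tested. The last 100 bases before the start are given 5′ to 3′ on the gene's own strand, with GAGGAA or its reverse complement TTCCTC in capitals.
Cd53: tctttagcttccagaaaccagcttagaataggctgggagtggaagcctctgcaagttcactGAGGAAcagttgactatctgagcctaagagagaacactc
Laptm5: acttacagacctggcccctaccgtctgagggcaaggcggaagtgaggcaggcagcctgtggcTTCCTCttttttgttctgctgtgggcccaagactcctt
Fcgr1: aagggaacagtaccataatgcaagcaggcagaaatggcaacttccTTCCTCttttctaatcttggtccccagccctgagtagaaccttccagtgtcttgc
Fcgr3: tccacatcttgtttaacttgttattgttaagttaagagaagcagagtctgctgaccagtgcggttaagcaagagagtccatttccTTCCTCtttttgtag
Trem2: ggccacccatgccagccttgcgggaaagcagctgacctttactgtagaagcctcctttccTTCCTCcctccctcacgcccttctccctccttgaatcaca
Clec7a: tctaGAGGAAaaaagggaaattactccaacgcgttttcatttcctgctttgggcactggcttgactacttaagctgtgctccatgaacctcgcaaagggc
Mrc1: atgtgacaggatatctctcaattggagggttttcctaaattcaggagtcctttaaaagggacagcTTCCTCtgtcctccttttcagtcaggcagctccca
Itgam: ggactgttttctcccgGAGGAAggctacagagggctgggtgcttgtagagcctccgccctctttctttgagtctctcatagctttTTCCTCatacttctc
C1qb: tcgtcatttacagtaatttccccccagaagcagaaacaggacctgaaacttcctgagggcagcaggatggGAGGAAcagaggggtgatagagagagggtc
Aif1: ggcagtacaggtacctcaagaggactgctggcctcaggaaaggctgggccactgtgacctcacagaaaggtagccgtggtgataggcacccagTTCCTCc
Their positions were Cd53 chr3:106790150-106790249 (minus strand), Laptm5 chr4:130913216-130913315 (plus strand), Fcgr1 chr3:96293970-96294069 (minus strand), Fcgr3 chr1:171059395-171059494 (minus strand), Trem2 chr17:48346301-48346400 (plus strand), Clec7a chr6:129472780-129472879 (minus strand), Mrc1 chr2:14229314-14229413 (plus strand), Itgam chr7:128062540-128062639 (plus strand), C1qb chr4:136886201-136886300 (minus strand), Aif1 chr17:35176053-35176152 (minus strand). The capitals nearest to the start began 39, 38, 55, 15, 40, 96, 35, 15, 30 and 7 bases before it, in the same order.

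The 2 lysozyme genes are shown because their probe sets behaved differently although the genes are near-identical neighbours on chromosome 10.
Lyz1: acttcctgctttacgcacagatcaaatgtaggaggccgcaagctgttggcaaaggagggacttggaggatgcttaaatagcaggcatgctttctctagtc
Lyz2: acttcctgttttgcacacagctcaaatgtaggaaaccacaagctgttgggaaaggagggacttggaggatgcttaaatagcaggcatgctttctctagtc
These stretches were Lyz1 chr10:117292869-117292968 (minus strand), Lyz2 chr10:117282273-117282372 (minus strand). Over the 250 bases before their starts, 205 were identical, which is 85.4% of the aligned bases, and neither window held the core. Neither the 2 lysozyme probe sets nor that of Lilrb4a, which has a close paralog, can be assumed to be free of signal from the related gene.

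Unmarked tumor cells had the highest mean level of the 5 populations, with array medians subtracted, for 33 of the 34 members. The exception was Lyz1, with its highest mean in marked Pecam1-negative tumor cells. The lowest mean lay in Pecam1-positive tumor cells for 23 members, in marked muscle cells for 10 and in unmarked muscle cells for 1, Lcp1. On the deposited scale, without subtraction, the highest population was the same for these counts (33 and 1) but the lowest was Pecam1-positive tumor cells for 13, marked muscle cells for 18 and unmarked muscle cells for 3, so the order of the 2 lowest populations depends on the scale. All 34 members were above the 40th percentile of the array in every unmarked tumor array and in every marked Pecam1-negative tumor array. In unmarked muscle cells 32 were, in marked muscle cells 26, and in Pecam1-positive tumor cells 22.

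**Figure D1:**
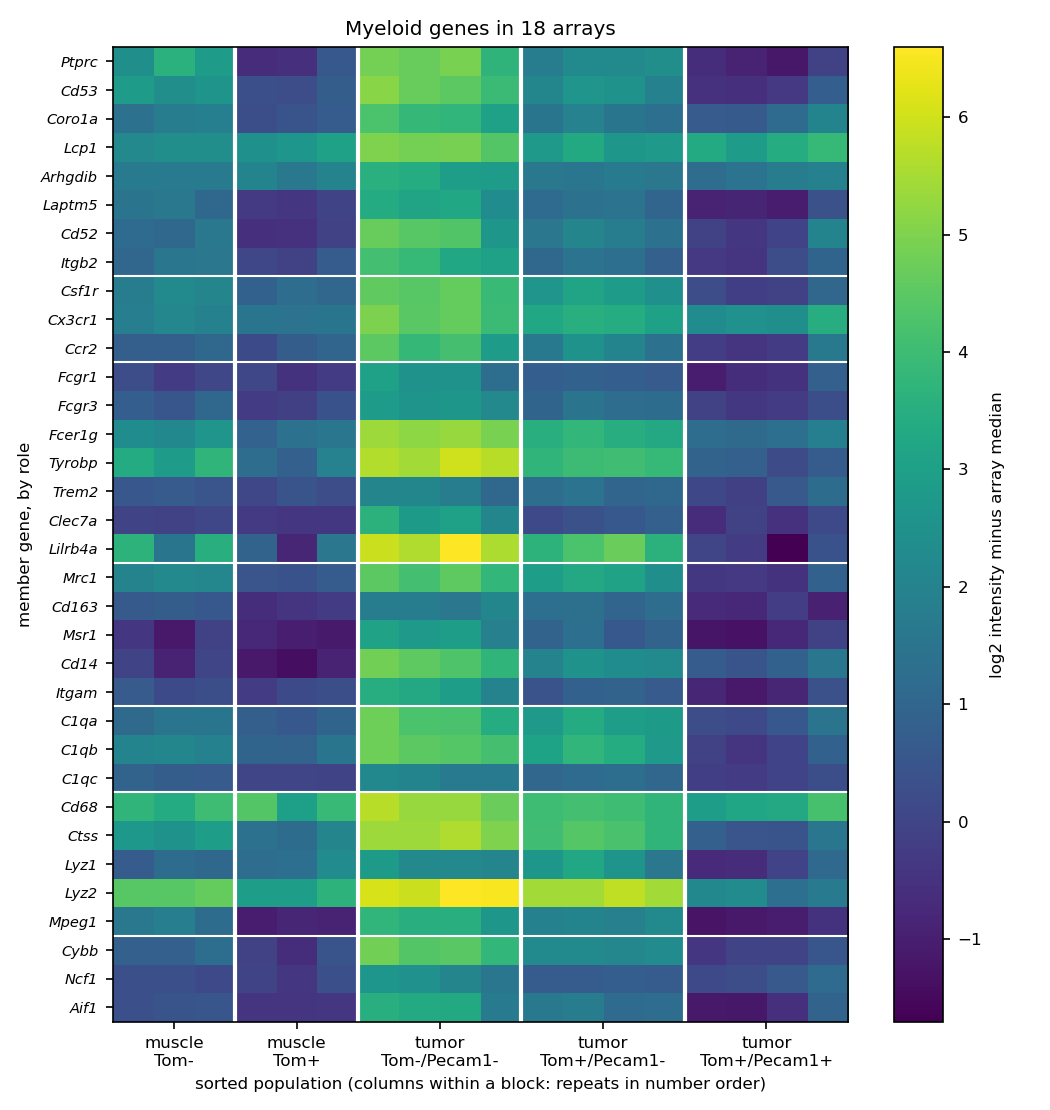
Heat map of the 34 members (rows, grouped by role) in the 18 arrays (columns, grouped by sorted population), coloured by log2 intensity minus the array median. Unmarked tumor arrays are the brightest block, marked Pecam1-negative tumor arrays come next, and the fourth columns of the unmarked and Pecam1-positive tumor blocks, both repeat 4, stand apart from their neighbours.

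The first comparison asks how myeloid expression in unmarked cells of a tumor differs from that in unmarked cells of muscle. With array medians subtracted, all 34 members were higher in unmarked tumor cells, from 1.11 (C1qc) to 4.65 (Cd14) on the log2 scale, with a median of 2.34. In all 34 the 4 tumor and 3 muscle arrays did not overlap. Over all 16011 genes 23.8% were called higher and 24.9% lower at an adjusted p under 0.05, 23.9% were higher without overlap, and the median was -0.02. All 34 were called higher again without repeat 4, with a median of 2.42, against 3886 of 16011 genes higher and 4064 lower. Tissue, strain, age, SmoM2 and the sort differ together here, the unmarked tumor cells being gated as Pecam1-negative and the unmarked muscle cells having no Pecam1 gate in the labels. These differences cannot be told apart, nor can more cells of a type and more RNA per cell.

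Pan-leukocyte members rose by 1.49 to 2.73. Ptprc, the CD45 phosphatase of all leukocytes, read 7.52, 8.72 and 7.89 in unmarked muscle and 10.29, 10.07, 10.35 and 9.12 in unmarked tumor cells. After centring it was 2.98-fold higher (1.58 ± 0.35 SE, adjusted p = 0.00142), and its lowest tumor value, in repeat 4, still exceeded the highest muscle value. Lcp1, the actin-bundling protein L-plastin, rose from 7.31, 7.51 and 7.45 to 10.40, 10.28, 10.33 and 9.80, a centred difference of 2.44 ± 0.21. Its 3 muscle values lay close together. Arhgdib rose least in this group (1.49 ± 0.17) and Cd52, a small surface glycoprotein, most (2.73 ± 0.49). Between them came Itgb2, the beta chain of the leukocyte integrins (2.18), the actin regulator Coro1a (2.03), the tetraspanin Cd53 (1.95) and the lysosomal protein Laptm5 (1.64).

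**Figure D2:**
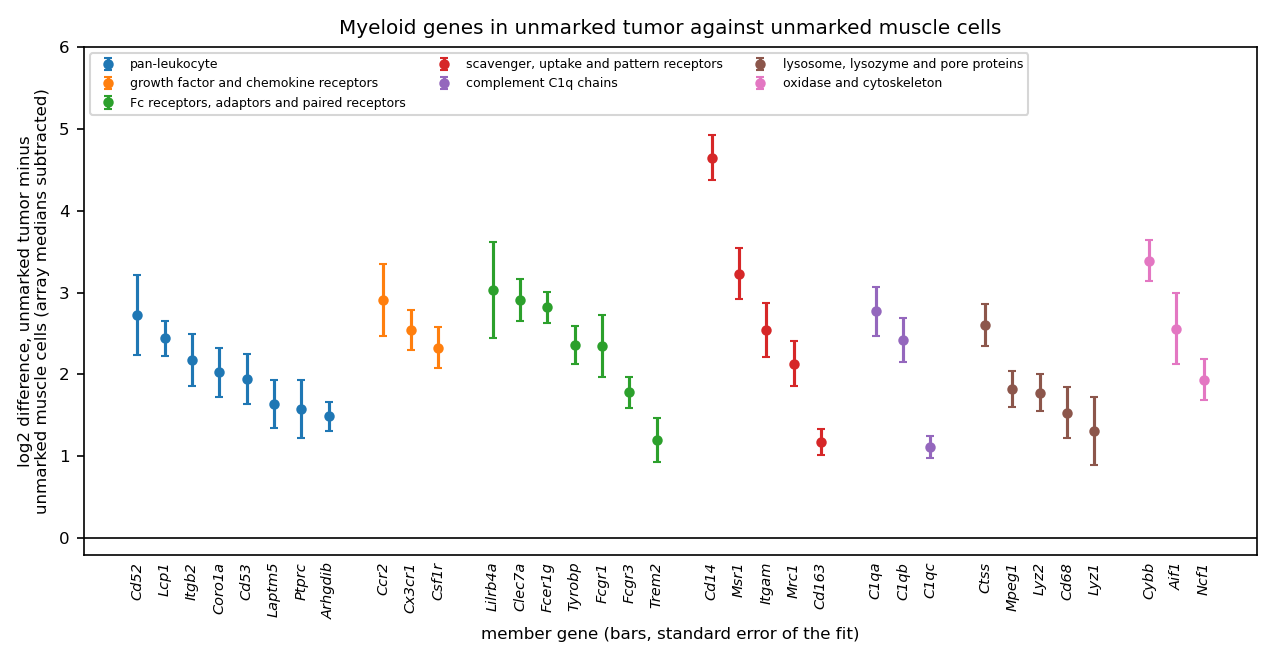
Log2 difference of unmarked tumor minus unmarked muscle cells, with array medians subtracted, for the 34 members grouped by role (points, fitted difference; bars, standard error). All 34 lie above 0, and Cd14 at 4.65 stands highest.

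The 3 growth factor and chemokine receptors rose together. Csf1r, the receptor for Csf1, read 6.91, 7.38 and 7.14 in unmarked muscle and 9.996, 9.87, 10.06 and 9.32 in unmarked tumor cells (5.03-fold after centring, adjusted p = 1.24e-06). Ccr2 read 5.91, 5.93 and 6.17 against 9.93, 9.24, 9.55 and 8.27 (7.51-fold, adjusted p = 4.5e-05). Repeat 4 was the low tumor value of Ccr2, still above the muscle arrays. Cx3cr1, the fractalkine receptor of patrolling monocytes and many resident macrophages, read 6.94, 7.23 and 6.98 against 10.38, 9.91, 10.06 and 9.38 (5.83-fold, adjusted p = 3.26e-07). The genes for their chemokine ligands were higher as well, 4 of 4 tested. Ccl12 differed by 4.45 ± 0.59, Ccl2 by 2.08 ± 0.46, Ccl7 by 2.03 ± 0.32 and the Cx3cr1 ligand Cx3cl1 by 1.56 ± 0.16. Ccl12 read 3.58, 3.74 and 3.99 in muscle, dim in all 3 arrays, and 9.17, 9.02, 9.06 and 6.96 in tumor, again lowest in repeat 4.

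Of 10 genes of the Csf1 axis and of myeloid transcription control, 8 were higher and 1 lower. Spi1 rose by 2.35 ± 0.31, Cebpa, a regulator of the granulocyte and monocyte lineages, by 1.97 ± 0.26, and Csf2ra and Csf2rb, the chains of the GM-CSF receptor, by 1.05 and 1.45. Csf1 itself rose by 0.72 ± 0.17. The lower gene was Cebpb, which many cell types express (-0.61 ± 0.18, adjusted p = 0.0111). Il34, the other ligand of Csf1r, differed by -0.13 ± 0.20 and was not called (adjusted p = 0.615).

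Fc receptors, their adaptors and paired receptors rose by 1.19 (Trem2) to 3.03 (Lilrb4a). Tyrobp, the adaptor DAP12 through which Trem2 and related receptors signal, read 8.51, 7.996 and 8.77 in unmarked muscle and 11.06, 10.87, 11.41 and 11.13 in unmarked tumor cells (2.36 ± 0.23 centred, adjusted p = 5.73e-07). Repeat 4 was not low for Tyrobp. Fcer1g, the signalling chain shared by several Fc receptors, had the smallest standard error of this group beside its 7.06-fold difference (adjusted p = 6.96e-09). The high-affinity IgG receptor Fcgr1 rose by 2.35 ± 0.38 and the low-affinity receptor Fcgr3 by 1.78 ± 0.19. Clec7a, the beta-glucan receptor dectin-1, rose from 5.10, 5.03 and 5.10 to 9.04, 8.25, 8.46 and 7.54. Its muscle arrays sat near the array medians and its tumor arrays far above theirs. Lilrb4a, an inhibitory receptor, was the most variable member in muscle, at 8.74, 6.62 and 8.55, and reached 11.35, 11.02, 12.02 and 10.98 in tumor. Trem2, a lipid-sensing receptor, rose by 1.19 ± 0.27 (adjusted p = 0.00154). The other 9 genes tested from the Fc receptor and ITAM signalling pathway were all higher. Among them Inpp5d, Btk, Ptpn6 and Fcgr2b rose by 2.38, 2.59, 2.66 and 2.38.

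Scavenger, uptake and pattern receptors rose by 1.17 (Cd163) to 4.65 (Cd14). Cd14, the co-receptor for bacterial lipopolysaccharide, read 5.08, 4.22 and 5.08 in unmarked muscle and 10.25, 9.96, 9.74 and 9.14 in unmarked tumor cells. That is 25.02-fold after centring (adjusted p = 2.35e-09). Unmarked muscle repeat 2 was below the 40th percentile of its array for Cd14, so the muscle level is near the dim end there. Msr1, a scavenger receptor for modified lipoproteins, rose by 3.23 ± 0.31 from 4.69, 3.96 and 4.94, values below the array medians. Itgam, the integrin chain that pairs with Itgb2 in the complement receptor of monocytes and neutrophils, rose by 2.55 ± 0.33. The mannose receptor Mrc1 rose from 7.10, 7.30 and 7.19 to 9.95, 9.55, 9.95 and 9.22 (4.38-fold, adjusted p = 8.56e-06). Cd163, the haemoglobin scavenger receptor, rose only 2.26-fold, and here repeat 4 was the highest of the 4 tumor values, 7.21, 7.23, 7.02 and 7.51.

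The 3 chains of C1q, which starts the classical complement cascade, rose unequally. C1qa differed by 2.77 ± 0.30, C1qb by 2.42 ± 0.26 and C1qc by 1.11 ± 0.13. C1qb read 7.12, 7.21 and 6.997 in unmarked muscle and 10.19, 9.92, 9.82 and 9.55 in unmarked tumor cells, and C1qc 6.03, 5.86 and 5.74 against 7.59, 7.45, 7.16 and 7.11. The difference between the chains was not tested. Among lysosomal and antimicrobial genes, the protease Ctss rose by 2.60 ± 0.25, the pore-forming Mpeg1 by 1.82 ± 0.22, the endosomal glycoprotein Cd68 by 1.53 ± 0.31 and the macrophage lysozyme Lyz2 by 1.77 ± 0.23. Lyz2 read 9.54, 9.55 and 9.68 in muscle and 11.51, 11.36, 11.99 and 11.94 in tumor, where repeats 3 and 4 were highest. Lyz1 had the largest adjusted p of the list (1.31 ± 0.41, adjusted p = 0.0142), and without unmarked muscle repeat 1 it missed the threshold (1.16, adjusted p 0.0591).

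Cybb, the catalytic subunit of the phagocyte NADPH oxidase, rose from 5.93, 5.93 and 6.34 to 10.25, 9.79, 9.91 and 9.22, the second largest difference of the list (3.39 ± 0.25, adjusted p = 2.52e-08). Its muscle and tumor arrays were far apart. The oxidase organiser Ncf1 rose by 1.94 ± 0.25, and Aif1, an actin-binding protein of macrophages, by 2.56 ± 0.43. The other 3 oxidase subunit genes tested were higher too, Cyba by 1.83, Ncf4 by 2.22 and Rac2 by 1.42.

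Markers of other cell types moved in the same comparison. Of the neutrophil list 12 of 12 genes were higher, with a median of 2.62 close to that of the members, and its mean level ran from -0.17 to 0.28 in muscle and from 1.52 to 3.63 in tumor arrays relative to the array median. Il1r2, S100a8, S100a9 and Csf3r had the smallest adjusted p in it, at 3.97, 2.37, 2.15 and 1.98. Itgam, Lyz2, Fcer1g, Tyrobp, Itgb2, Cybb and the pan-leukocyte members are also expressed by neutrophils. Of the mast cell list 5 of 6 were higher (median 1.17) and of the dendritic cell list 2 of 6, Xcr1 and Flt3, at 1.58 and 1.49. Of 10 lymphocyte genes 1 was called, Nkg7 at 1.23, but 6 of 10 were called without repeat 4. Endothelial, myogenic and fibroblast genes fell or were not called. Of 8 endothelial genes 7 were lower (median -1.19), of 5 myogenic genes 4 (median -1.32) and of 6 fibroblast genes 1 (median -0.37), with 0 higher in each list. Of 7 salivary gland genes tested 2 were higher and 2 lower. The part of each cell type in the members' rise was not tested.

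Resident macrophage and monocyte genes were then set side by side. Of 18 resident macrophage genes 14 were higher in unmarked tumor cells, with a median of 1.31, and of 13 monocyte genes 12 were higher, with a median of 2.55. Without repeat 4 the counts were 15 and 13. Vsig4, a complement receptor of resident macrophages, had the smallest adjusted p (3.58 ± 0.20), from 2.88, 3.11 and 3.16, dim in all 3 muscle arrays, to 6.60, 6.99, 6.86 and 7.43, highest in repeat 4. Stab1, Cx3cr1 and C1qa had the next smallest adjusted p in that list, at 1.87, 2.54 and 2.77. The 4 not called were Folr2, Mertk, Timd4 and Lyve1, at 0.40, 0.10, -0.09 and 0.06. Mertk lay between 7.90 and 8.90 in all 18 arrays, so it does not separate macrophages from the other sorted cells here, and Timd4 lay between 4.78 and 5.90. In the monocyte list Cd14, Clec4e, Lyz2 and Itgam led by adjusted p, and Clec4e, a C-type lectin, differed by 3.25 ± 0.36. The gene not called was Plac8 (0.84 ± 0.41, adjusted p = 0.0988). Of 13 genes of lipid-associated macrophages 9 were higher, with a median of 0.71, among them Msr1 and Itgax (2.87).

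To see which genes rose more or less than the pan-leukocyte members, each array was scaled to the mean of those 8 genes. Relative to the array median, Ptprc averaged 2.96 in unmarked muscle, -0.22 in marked muscle and -0.68 in Pecam1-positive tumor cells. Lcp1 averaged 2.34, 2.72 and 3.38 and Arhgdib 1.73, 1.90 and 1.61 in the same order, so they did not follow Ptprc. The part of cells other than leukocytes in the scale was not tested. The scale is itself made of members whose own rises spanned 1.49 to 2.73, so a value within that spread carries little. On it a gene with the same level in both tissues falls, and the median of all genes was -2.02, with 0.737% of 16011 genes called higher and 95.5% lower. Of the 26 other members 8 were called higher, 4 lower and 14 not called, with a median of 0.39. The higher ones were Cd14 (2.64 ± 0.32), Cybb (1.39 ± 0.32), Msr1 (1.23 ± 0.33), Lilrb4a (1.03), Ccr2 (0.91), Clec7a (0.90), Fcer1g (0.82) and C1qa (0.77). The lower ones were C1qc (-0.89 ± 0.32), Cd163 (-0.83 ± 0.35), Trem2 (-0.81 ± 0.32) and Lyz1 (-0.69 ± 0.33). None of these 4 lower calls held without unmarked muscle repeat 1. C1qc (adjusted p 0.0566) and Trem2 (0.0526) were lost there only, Cd163 in 4 of the 7 fits that left out 1 array (0.0522 to 0.0757) and Lyz1 in 5 (0.0508 to 0.117). C1qa (0.0646) also missed the threshold without that array, Fcer1g (0.0868) without unmarked muscle repeat 2, and Lilrb4a without unmarked muscle repeat 2 (a difference of 0.29) or unmarked tumor repeat 3 (0.82). Without all arrays of tumor repeat 4 the counts were 12 higher and 5 lower, Lilrb4a missing the threshold (0.0615). Over all 16011 genes that fit called 144 higher and 15545 lower.

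On the same scale 3 of 18 resident macrophage genes were higher and 9 lower (median -0.69), against 5 higher and 2 lower of 13 monocyte genes (median 0.54). The 8 scaling members ran from -0.51 to 0.72 on it, so the monocyte median lies within their spread. The higher resident genes were Vsig4 (1.58), C1qa (0.77) and Adgre1, an adhesion receptor widely used to mark mouse macrophages (0.73). The 9 lower ones ran from Timd4 (-2.09) to Cd163 (-0.83), and Timd4, Mertk, Lyve1 and Folr2 were the 4 already near no change before scaling. The higher monocyte genes were Cd14, Chil3 (1.54), Clec4e (1.25), Ccr2 and Ifitm6 (0.72), and the lower ones Treml4 (-1.52) and Plac8 (-1.17). Chil3 read 9.61, 9.91, 7.84 and 6.75 in unmarked tumor cells, lower in repeats 3 and 4, so its spread was wide. The neutrophil list was also lower in those repeats, averaging 3.58, 3.63, 1.52 and 1.74 above the array median. On the leukocyte scale 5 of its 12 genes were higher and 1 lower (median 0.61). The part of neutrophils in the monocyte list was not tested. Lists were chosen by name, and the difference between the resident macrophage and monocyte lists was not tested. Without repeat 4 the counts were 4 higher and 10 lower for resident genes and 7 higher and 3 lower for monocyte genes.

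**Figure D3:**
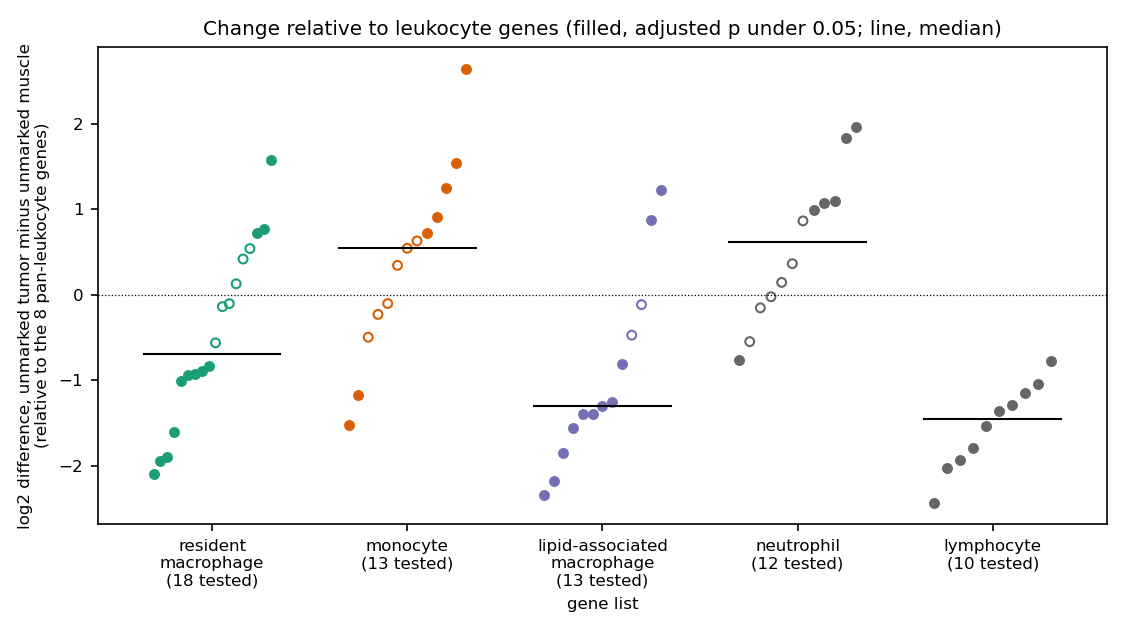
Log2 difference of unmarked tumor minus unmarked muscle cells relative to the mean of the 8 pan-leukocyte members, for 5 gene lists (points, genes; filled, adjusted p under 0.05; line, median). Monocyte and neutrophil genes lie mostly above 0, with medians of 0.54 and 0.61, and resident macrophage genes mostly below it, with a median of -0.69. The 8 scaling members themselves ran from -0.51 to 0.72, a spread that holds the monocyte and neutrophil medians. The median of all genes tested was -2.02.

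The second comparison asks what the Tomato mark separates within Pecam1-negative tumor cells. Of the 34 members 32 were higher in unmarked than in marked cells and 0 lower, with a median difference of 1.61, against 12% of all genes higher and 13.4% lower and a median of -0.03. The 2 not called were Trem2 (0.56 ± 0.25, adjusted p = 0.117) and Lyz1 (-0.19 ± 0.38, adjusted p = 0.773). Clec7a differed most, 9.04, 8.25, 8.46 and 7.54 in unmarked and 5.55, 5.78, 6.01 and 6.26 in marked cells (2.42 ± 0.24). Lilrb4a (1.86) lost its call without marked repeat 1 (adjusted p 0.0545) or unmarked repeat 3 (0.0522), and Trem2 gained one without repeat 4 (0.75, adjusted p 0.00589). Itgb2, Ptprc, Cd52 and Cd53 stood nearest to Clec7a at 2.41, 2.36, 2.32 and 2.27. At the other end stood Cd163 (0.59), Lyz2 (0.75), C1qc (0.77), C1qb (1.18) and C1qa (1.18).

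The marked Pecam1-negative tumor cells still held high levels of the macrophage genes. Lyz2 read 10.86, 10.87, 11.21 and 10.87 there against 11.51, 11.36, 11.99 and 11.94 in unmarked cells, a difference of 0.75 ± 0.20 (adjusted p = 0.0116), which missed the threshold without repeat 4 (0.0675). The 2 groups did not overlap. Neutrophil genes differed by a median of 3.23 between the same populations (12 of 12 called) and mast cell genes by 3.39 (6 of 6). Resident macrophage genes differed by 1.18 (15 of 18 called higher), monocyte genes by 2.07 (12 of 13) and lymphocyte genes by 1.75 (9 of 10). These medians are a description, and the difference between the lists was not tested.

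**Figure D4:**
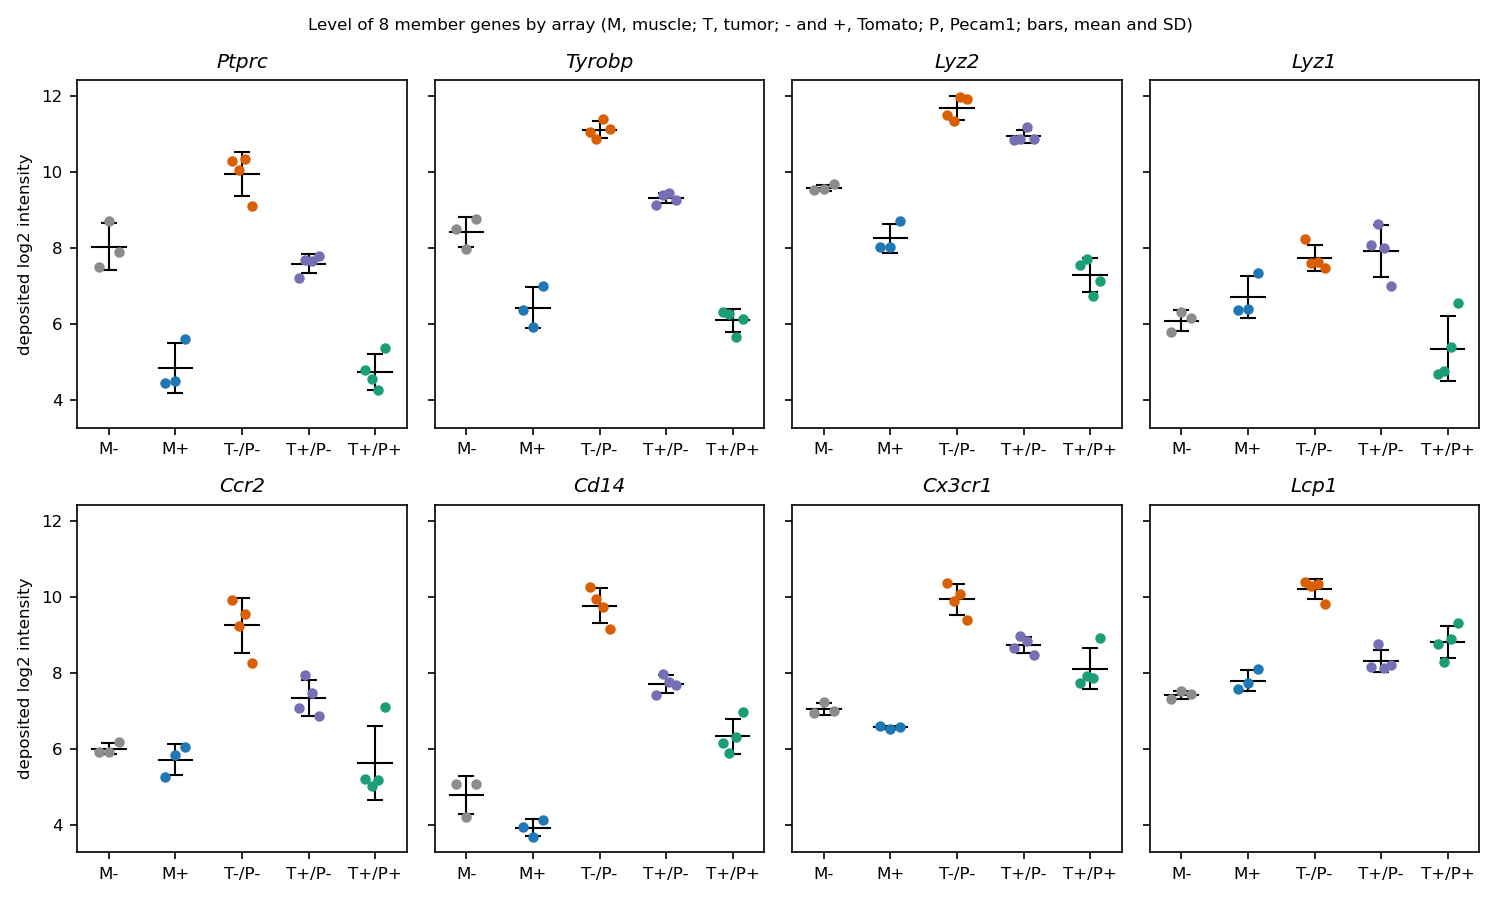
Deposited log2 intensity of 8 members in every array of the 5 sorted populations (points, arrays; lines, mean and SD; n = 3 for each muscle population and 4 for each tumor population). Ptprc, Tyrobp, Ccr2, Cd14 and Cx3cr1 are highest in unmarked tumor cells, Lyz1 overlaps between unmarked and marked Pecam1-negative tumor cells, and Lcp1 stays between 7.31 and 9.31 outside the unmarked tumor arrays.

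The third comparison sets the marked Pecam1-negative tumor cells against the marked Pecam1-positive tumor cells. Of the 34 members 29 were lower in Pecam1-positive than in Pecam1-negative marked cells, 1 was higher and 4 were not called, with a median of -1.82, against 23.6% of all genes lower and 21% higher and a median of 0.01. A fit with the repeat number as a block called 24 lower and 0 higher, against 3136 of 16011 genes lower and 2669 higher. Lilrb4a differed most (-4.43 ± 0.54). Lyz2 fell from 10.86, 10.87, 11.21 and 10.87 to 7.57, 7.72, 6.74 and 7.13, a difference of -3.66 ± 0.20 (adjusted p = 1.31e-10). Ctss fell from 9.46, 9.82, 9.63 and 9.13 to 6.26, 5.92, 5.88 and 6.998. C1qb fell from 8.54, 9.17, 8.86 and 8.20 to 5.34, 4.97, 5.39 and 6.32 and Mrc1 from 8.37, 8.74, 8.48 and 7.86 to 5.07, 5.10, 4.94 and 6.30. In these 4 genes no Pecam1-positive array reached a Pecam1-negative one. Tyrobp, Mpeg1, Ptprc, Csf1r and C1qa were lower by 9.32-, 8.03-, 7.21-, 5.60- and 5.12-fold, with Mpeg1 and Ptprc dim in 3 of 4 Pecam1-positive arrays.

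Pecam1-positive levels differed between members, from a mean of -0.98 relative to the array median for Mpeg1 to 3.41 for Cd68, and 12 members were dim in at least 1 of the 4 arrays. Means of Lcp1, Cx3cr1, Lyz2 and Fcer1g stood at 3.38, 2.68, 1.86 and 1.41 on the same scale. Csf1r read 5.68, 5.25, 5.38 and 6.48 and Ptprc 4.79, 4.55, 4.28 and 5.38, highest in repeat 4 for both. The higher gene was Lcp1 (0.50 ± 0.20, adjusted p = 0.0473), which was not called without repeat 4 (0.211) or with array medians subtracted. Coro1a, Arhgdib, Cd68 and Ncf1 were not called, at -0.43, 0.0012, -0.54 and -0.17. Without repeat 4, 31 members were lower and 0 higher, Coro1a and Cd68 being added, against 3566 of 16011 genes lower and 3101 higher. Cx3cr1 stayed well above the median in Pecam1-positive cells, at 7.74, 7.91, 7.88 and 8.92, and its difference of -0.62 ± 0.22 lost its call in 6 of the 8 fits that left out 1 array (adjusted p 0.0503 to 0.105). Lcp1 did so in 6 as well (0.0707 to 0.168), Cd52 in 5 (0.0510 to 0.0824), Trem2 in 3 (0.0660 to 0.0870), Clec7a in 3 (0.0525 to 0.0597) and Fcgr1 in 1, without Pecam1-positive repeat 1 (0.0654).

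Neutrophil and lymphocyte genes were low on both sides of this gate. Relative to the array median the neutrophil list averaged -1.20 to -0.13 in Pecam1-negative and -1.20 to -0.09 in Pecam1-positive marked cells, and several of its genes were dim there. Genes near background on both sides cannot fall, so the absence of calls in both lists here says nothing about those cells. Of 6 mast cell genes 2 were higher in Pecam1-positive cells and 0 lower. Those 2, Kit and Hdc, differed by 2.59 and 2.58. Among resident macrophage genes 15 of 18 were lower and 1 higher, Stab1 at 1.496, which endothelium also expresses. Among monocyte genes 6 of 13 were lower and 1 higher, Ly6c2 at 3.24, whose probe set may share signal with Ly6c1 of endothelium. All 8 endothelial genes were higher, with a median of 4.62, and all 6 fibroblast and 5 myogenic genes lower, with medians of -3.88 and -3.04. Whether the macrophage signal of the marked Pecam1-negative gate comes from marked macrophages or from unmarked cells in the gate was not tested.

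**Figure D5:**
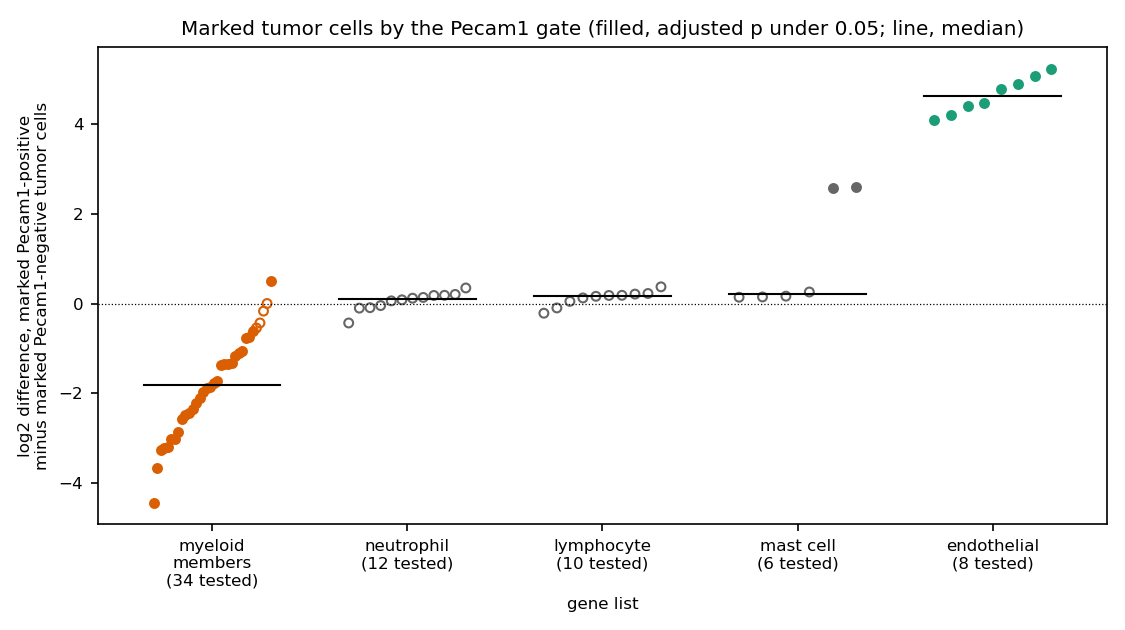
Log2 difference of marked Pecam1-positive minus marked Pecam1-negative tumor cells for the 34 members and for 4 other gene lists (points, genes; filled, adjusted p under 0.05; line, median). The members have a median of -1.82, the neutrophil and lymphocyte genes, near background in both populations, lie between -0.43 and 0.37, and the 8 endothelial genes lie above 4.

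Set directly against marked Pecam1-positive cells, unmarked tumor cells had all 34 members higher, with a median of 3.51, against 21.2% of all genes higher and 20.5% lower. The differences ran from 1.31 (Trem2) to 6.29 (Lilrb4a). Tyrobp, dim in 0 of these arrays, was 32.3-fold higher. Ptprc differed by 5.21, but it was dim in 3 of the 4 Pecam1-positive arrays, and Lilrb4a was dim in 1. Of the members only Trem2 overlapped between the 2 populations. Of all 16011 genes 3000 were higher and 3023 lower without overlap. This comparison and the previous 2 share arrays and are not independent.

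In muscle the mark separated fewer members. Of the 34, 20 were higher in unmarked than in marked muscle cells, 0 were lower and 14 were not called, with a median of 0.88, against 20.5% of all genes higher and 19.1% lower. Ptprc led, 7.52, 8.72 and 7.89 in unmarked against 4.45, 4.51 and 5.61 in marked cells (3.19 ± 0.38, adjusted p = 2.21e-06). Mpeg1 followed, 6.70, 6.96 and 6.27 against 4.03, 4.25 and 4.12 (2.51 ± 0.24). Neither gene overlapped between the 2 populations, and in marked cells Ptprc was dim in 2 arrays and Mpeg1 in 3. Without overlap 24 members were higher in unmarked cells and 2, Lcp1 and Lyz1, lower, against 4036 and 3753 of 16011 genes. Lilrb4a, Cd53 and Tyrobp differed by 2.33, 2.18 and 1.99, and Mrc1 and Cd163 by 1.59 and 1.09. Other cell types differed across the same mark. All 6 fibroblast genes (median 5.01) and all 5 myogenic genes (2.93) were higher in unmarked cells and all 8 endothelial genes lower (-3.26). Of mast cell genes 4 of 6 were higher and 1 lower, of neutrophil genes 4 of 12 higher and of lymphocyte genes 4 of 10 higher, and their part in the members' differences was not tested. Repeat numbers pair the muscle samples. With the repeat as a block 18 members were called, all higher, against 2694 of 16011 genes higher and 2498 lower. Cd52 (adjusted p = 0.0154, 0.0518 with the block) and C1qb (0.0183, 0.0625) were the 2 lost. Of the 6 fits that left out 1 array, Cd14 lost its call in 4 (adjusted p 0.0514 to 0.102), C1qb in 3 (0.0546 to 0.0687) and Cd52 in 1, without unmarked repeat 3 (0.0550).

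Of 13 monocyte genes 3 were higher in unmarked than in marked muscle cells, among them Cd14 and Lyz2, 1 was lower and 9 were not called. Of 18 resident macrophage genes 9 were higher, 1 lower and 8 not called. Among the members not called, Ccr2 read 5.91, 5.93 and 6.17 in unmarked and 5.26, 5.84 and 6.04 in marked cells (0.29 ± 0.47). Itgam differed by 0.32 ± 0.35 and Fcgr1 by 0.24 ± 0.41. Ccr2, Itgam and Fcgr1 overlapped between the populations. The other 11 members not called were Lcp1, Arhgdib, Cx3cr1, Trem2, Clec7a, Msr1, C1qa, Cd68, Lyz1, Ncf1 and Aif1. No member was lower in unmarked muscle or unmarked Pecam1-negative tumor cells at an unadjusted p of 0.05 (limma, 0 in each). In muscle Lyz1 had the most negative value, -0.61 ± 0.44, with 6.36, 6.41 and 7.35 in marked against 5.80, 6.33 and 6.17 in unmarked cells.

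Across both tissues 20 members were called higher in unmarked cells of muscle and of tumor, 12 in tumor and not in muscle, and 2, Trem2 and Lyz1, in neither. Over all genes 20.5% were called higher in the muscle contrast and 12% in the tumor contrast. The share of all genes called in both was not counted, so how unusual these counts are is not known. Whether a mark difference is larger in tumor was tested as the difference of the 2 contrasts. There 11 members were called higher, 1 lower and 22 not called, against 18.5% of all genes higher and 20.9% lower. With the repeat number as a block, which pairs the muscle samples, 7 were higher and 1 lower, against 2292 of 16011 genes higher and 2676 lower. Itgb2 (adjusted p 0.0868 with the block), Ccr2 (0.113), Msr1 (0.0656) and Ncf1 (0.0532) were the 4 lost. Lcp1 differed most (2.26 ± 0.30, adjusted p = 1.12e-05), with 7.31, 7.51 and 7.45 in unmarked and 7.56, 7.74 and 8.10 in marked muscle cells but 10.40, 10.28, 10.33 and 9.80 and 8.16, 8.76, 8.12 and 8.22 in tumor. Clec7a (2.08), Itgam (1.88), Arhgdib (1.76), Ccr2 (1.62), Msr1 (1.32), Cd68 (1.31), Itgb2 (1.23), Cd14 (1.20), Ncf1 (1.19) and Cybb (1.07) were the others. The lower gene was Mpeg1 (-1.15 ± 0.32, adjusted p = 0.00816). The marked populations are not alike. Marked muscle cells carried the 8 endothelial genes at 5.32 to 5.53 above the array median and marked Pecam1-negative tumor cells at 0.82 to 1.15, so the 2 contrasts set unmarked cells against different cells.

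This count was the least stable of those given here. It was 7 without unmarked muscle repeat 2 and 7 without marked muscle repeat 3, 8 without unmarked tumor repeat 1, 17 without unmarked tumor repeat 4 and 22 without all day 38 arrays, 20 of them higher. Without all day 38 arrays 3177 of 16011 genes were higher and 3510 lower. For the fits that left out 1 array the share of all genes was not counted. In the 14 fits that left out 1 array, Ccr2 lost its call in 11 (adjusted p 0.0593 to 0.107), Itgb2 in 7 (0.0507 to 0.109), Cd68 in 4, Cybb and Msr1 in 3 and Cd14 in 2. Lcp1, Arhgdib, Clec7a, Itgam, Ncf1 and Mpeg1 kept theirs whichever single array was left out, though Ncf1 lost its call with the block. Msr1, Cd14 and Mpeg1 were dim in all 3 marked muscle arrays, so their muscle contrast rests on a floor.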

How the data were processed

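The authors' deposited values are log2 intensities of 41345 probe sets on 18 arrays, made with RMA and Partek as the submitters' processing notes list without versions. The scale was taken as log2 from the values, and the array build is not given in the sources used here. Per the labels, RNA came from FACS-sorted cells (RNeasy micro kit) and was amplified with NuGEN Ovation Pico v2.

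Probe sets with 1 gene symbol were kept (23521; 1814 had several and 16010 none), the one with the highest mean was used per gene, and genes were tested whose value passed the array's 40th percentile on 3 or more arrays. Differences were tested with limma 3.58.1 in R 4.3.3, 1 mean per population over all 18 arrays, two-sided, with Benjamini-Hochberg adjustment over the 16011 genes and a threshold of 0.05. Array medians were subtracted for tumor against muscle, and in 1 fit also the mean of the 8 pan-leukocyte members. The fit was also run on simulated data with independent noise. Those data lacked the equal tumor repeat means and the leukocyte scaling, so that check covers neither. Standard errors (SE) are limma's. The labels call the samples biological repeats and do not say which animals they came from. No array pair was identical.

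Deviations from the population means correlated across genes at 0.27 to 0.31 for the 3 muscle pairs of equal number and at -0.20 to -0.09 for other muscle pairs, so the repeat numbers pair the muscle samples. In tumor the equal repeat means make the check void.

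All 34 members are named, and from other lists up to 4 genes with the smallest adjusted p and every passing gene where a list had at most 5. Other genes were named after their values were seen, such as those not called or on the smaller side of a list. The members and lists were chosen with earlier results of these data known. Alternatives were other filters, probe set means, variance models, scalings and thresholds, only the groups compared, the repeat as a block, and leaving out arrays or repeats. Genes of the lists without an unambiguous probe set were not analysed here. Promoter windows were matched by symbol, and sequence positions are those of GRCm38.p6, not of the array. Figures were drawn with matplotlib 3.10.9.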

Additional observations from a re-analysis of the deposited data

Results flagged for a closer look

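In the tumor populations, 10 single values stood far from the other 3 arrays of their group, among 102 member and population pairs checked, and chance alone gives about 1 in 20. In 5 of the 10 the array was Pecam1-positive repeat 4, from the day 38 tumor, and its level was high. These were Laptm5 (5.79, others 4.39 to 4.57), Cd52 (7.48, others 5.03 to 5.38), Cx3cr1 (8.92, others 7.74 to 7.91), Ccr2 (7.09, others 5.02 to 5.20) and Mrc1 (6.30, others 4.94 to 5.10). Unmarked repeat 4 was low for Cd52 (8.09, others 9.77 to 10.09) and for Aif1 (7.18, others 8.77 to 8.92). Among marked Pecam1-negative cells, repeat 2 was high for Lcp1 (8.76, others 8.12 to 8.22), and repeat 3 was high for Lyz2 (11.21, others 10.86 to 10.87) and for Ncf1 (6.20, others 6.12 to 6.13), the last by a small amount in groups with little spread. Because the mean of the 3 populations is the same in each repeat, low and high values within repeat 4 are not independent of each other.

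The unmarked minus marked difference was larger in tumor than in muscle for 11 members by the test of the difference. Lcp1 differed by 2.26, Clec7a by 2.08, Itgam by 1.88, Arhgdib by 1.76, Ccr2 by 1.62, Msr1 by 1.32, Cd68 by 1.31, Itgb2 by 1.23, Cd14 by 1.20, Ncf1 by 1.19 and Cybb by 1.07 on the log2 scale. For Mpeg1 it was smaller in tumor (-1.15). With the repeat number as a block, which pairs the muscle samples, Ccr2, Msr1, Itgb2 and Ncf1 were not called, leaving 7 larger and 1 smaller. Over all 16011 genes the block fit called 2292 larger and 2676 smaller.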

How the results depend on the processing

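All 34 members were called in unmarked against Pecam1-positive tumor cells under every alternative run. For unmarked tumor against muscle 33 or 34 were called under every alternative run. Leaving out 1 array gave 18 to 20 calls for the muscle mark, 31 to 33 for the tumor mark, 24 to 31 for the Pecam1 gate, 33 to 34 for tumor against muscle, 8 to 13 relative to leukocyte genes and 7 to 17 for the mark difference. Without muscle repeats 1 and 2, which leaves 1 array in each muscle population, assumed to vary like the other groups, 4 members were called for the muscle mark, 3 for the mark difference and 2 relative to leukocyte genes. At an adjusted p of 0.01, 5 and 6 were called in the last 2. Without tumor repeat 4, an alternative chosen after seeing the data for this comparison and for the gene lists, the mark difference had 22 calls. With the repeat number within tissue as a replicate block, calls were 18 for the muscle mark, 32 for the tumor mark, 24 for the Pecam1 gate, 34 for unmarked against Pecam1-positive cells and 8 for the mark difference. For tumor against muscle no block was run, since it would join different animals.

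Of 4224 member values under alternatives, 164 lost a call, 39 gained one and 38 changed sign, none of them called in the reported fit. With 1 array left out, values in the muscle mark ranged over -0.41 to 0.30 for Cd68. With 1 array left out, values in the tumor mark ranged over -0.50 to 0.048 for Lyz1. With 1 array left out, values at the Pecam1 gate ranged over -0.12 to 0.12 for Arhgdib. With 1 array left out, values in the mark difference ranged over -0.10 to 0.064 for C1qc, -0.48 to 0.057 for Tyrobp, -1.14 to 0.22 for Lilrb4a, -0.18 to 0.22 for Ctss, -0.089 to 0.30 for Cd53, -0.054 to 0.37 for Laptm5. With 1 array left out, values relative to leukocyte genes ranged over -0.15 to 0.031 for Ncf1. After quantile normalization, values of the other sign were 0.062 for Cd68 in the muscle mark, 0.037 for C1qc in the mark difference. Without muscle repeats 1 and 2, values of the other sign were -0.013 for Itgam in the muscle mark, 0.14 for Cd68 in the muscle mark, -0.18 for Ncf1 in the muscle mark, 0.074 for Ptprc in the mark difference, 0.037 for Tyrobp in the mark difference, 0.071 for C1qc in the mark difference, 0.19 for Mpeg1 relative to leukocyte genes, 0.10 for Ncf1 relative to leukocyte genes. Without tumor repeat 4, values of the other sign were -0.13 for Arhgdib at the Pecam1 gate, 0.020 for C1qc in the mark difference. With medians subtracted, the value was -0.010 for Arhgdib at the Pecam1 gate. The cause of these changes was not tested. The number of arrays, 3 or 4 per population, limits precision.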
